A study of Mus musculus with 6 samples.

Results

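The genes described here are Mcm2, Mcm3, Mcm4, Mcm5, Mcm6 and Mcm7, which encode the subunits of the replicative DNA helicase, with Mcm10, the loaders Cdc6 and Cdt1, and Cdc45. They are 10 of the 12393 genes measured by probe sets with a single gene symbol, and 23 of the 20380 such probe sets carry one of their symbols. The list was chosen from the tetraploid and diploid values of these same arrays, in which most of its genes had lower means in tetraploid cells. Their differences between the fractions are therefore a description and carry no test. Liver cells came from 3-week-old C57BL/6 wild type mice, with no other genotype or agent in the labels. Freshly isolated hepatocytes were stained with a Hoechst DNA dye, divided by flow sorting into a diploid and a tetraploid fraction, and extracted for total RNA without further culture. Each fraction was measured on 3 Affymetrix arrays. A sort by DNA content also places diploid cells in G2 or mitosis in the tetraploid gate. The replicates are labelled as biological without naming animals, so errors and p-values cover only the scatter among these arrays, part of which may be technical.

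Origins of replication are licensed in G1, when the origin recognition complex and Cdc6 receive Cdt1 bound to a ring of Mcm2 to Mcm7 and close that ring around double-stranded DNA. Loaded rings are inactive until S phase, when kinases, Cdc45 and the GINS complex turn them into the moving helicase, with Mcm10 acting in the last step. The genes are transcribed mainly in cycling cells through E2F factors. Hepatocytes of the young mouse liver still cycle, and many become tetraploid around weaning when cytokinesis fails after mitosis.

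The 6 arrays resembled each other closely, with array medians of 86.4 to 89.2 intensity units and Pearson correlations of 0.992 to 0.997 between arrays across probe sets. The tested hepatocyte markers (8 genes) had a mean log2 intensity of 14.46 to 14.67 on the 6 arrays, with Alb and Ttr, secreted plasma proteins, the brightest. By limma, 0 of 9295 genes kept after a filter on dim genes passed a Benjamini-Hochberg adjusted p of 0.05, which is 0% of the genes, and 574 had an unadjusted p under 0.05. Levels are given as log2 intensity of the brightest probe set of each gene, and differences are tetraploid minus diploid on the log2 scale with the standard error (SE) of the limma fit. The arrays had been brought to a common distribution, so each difference is relative to the other transcripts, and fewer cells expressing a gene cannot be told apart from less RNA per cell.

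The 6 ring subunits all had lower levels in tetraploid cells, with log2 differences from -0.72 to -1.41. Mcm5, which forms the gate of the ring together with Mcm2, was at 8.07, 7.37 and 7.57 on diploid replicates 1 to 3 and at 6.59, 5.92 and 6.28 on tetraploid replicates 1 to 3. The highest tetraploid value lay 0.78 below the lowest diploid value. The difference was -1.41 ± 0.22 (SE, n = 3 per fraction), a 2.65-fold higher level in diploid cells.

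Mcm4, one of the catalytic subunits and a target of the kinase that fires origins, was at 9.60, 9.10 and 8.95 in diploid and 8.30, 7.86 and 8.09 in tetraploid replicates 1 to 3. The fractions did not overlap, and the difference was -1.13 ± 0.18, a 2.19-fold higher diploid level. Mcm7, which pairs with Mcm4 in the ring, was at 11.37, 10.79 and 10.94 in diploid and 10.21, 9.92 and 9.91 in tetraploid cells. Its 3 tetraploid arrays were again all below the diploid ones, with a difference of -1.02 ± 0.16. Mcm6, the third catalytic partner, was at 10.92, 10.37 and 10.62 in diploid and 9.88, 9.64 and 9.42 in tetraploid cells. Its difference was -0.99 ± 0.16, a 1.99-fold higher level in diploid cells, with no overlap.

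Mcm3, the subunit that contacts the loading machinery, was at 8.80, 8.17 and 8.07 in diploid and 7.59, 7.05 and 7.15 in tetraploid cells. The difference was -1.08 ± 0.21 with a diploid range of 0.72, the widest range of a ring subunit within a fraction. Mcm2, which also carries histones across the fork, was at 9.32, 9.07 and 8.87 in diploid and 8.64, 8.16 and 8.30 in tetraploid cells. The gap between the fractions was 0.22, the narrowest among the 6 ring subunits, and the difference was -0.72 ± 0.16. A second Mcm2 probe set differed by more, -1.26 ± 0.18, so the subunits cannot be ranked by these differences.

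Both loaders were lower in the tetraploid fraction as well. Cdt1, which delivers the ring to the origin and is destroyed once S phase begins, was at 10.41, 9.96 and 10.32 in diploid and 9.41, 9.23 and 8.73 in tetraploid replicates 1 to 3. The difference was -1.10 ± 0.19, a 2.15-fold higher diploid level, and the lowest diploid array was 0.55 above the highest tetraploid array. Cdc6, the ATPase that completes the loading platform, was at 6.52, 6.07 and 5.96 in diploid and 5.32, 4.68 and 4.89 in tetraploid cells. Its difference was -1.22 ± 0.20, and -0.73 after an offset of 32 was added to the intensities. Its tetraploid mean of 4.96 lay below the log2 cutoff of 5.06 for dim genes, so Cdc6 passed the filter through its diploid arrays.

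The 2 helicase activators differed in pattern. Cdc45, which joins the ring to form the active helicase, was at 7.10, 7.14 and 6.96 in diploid and 6.56, 6.40 and 6.32 in tetraploid cells. Its difference was -0.64 ± 0.09, with no overlap and an SD of 0.10 in diploid and 0.12 in tetraploid cells. Mcm10 shares its name with the ring subunits but is no part of the ring. It was at 9.05, 9.39 and 8.97 in diploid and 9.10, 8.85 and 9.34 in tetraploid cells. The fractions overlapped for Mcm10, and the difference was -0.04 ± 0.15, with a 1.03-fold ratio.

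**Figure D1:**
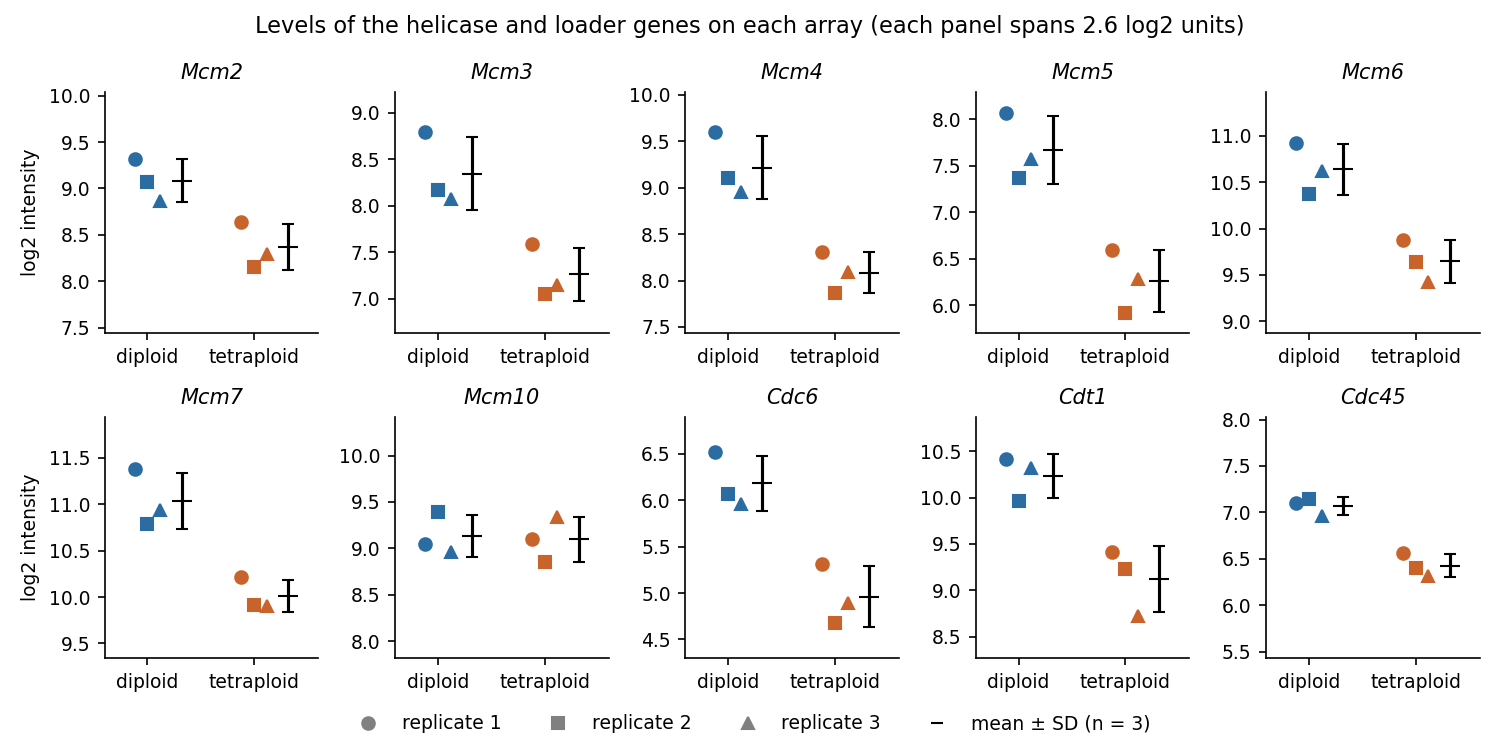
Log2 intensity of the 10 genes on each of the 6 arrays, with circles, squares and triangles for replicates 1, 2 and 3, diploid in blue, tetraploid in orange, and the mean ± SD (n = 3) in black. In 9 panels all tetraploid points lie below all diploid points, and in the Mcm10 panel they interleave.

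In all, 9 of the 10 genes had fractions that did not overlap, with the tetraploid arrays lower, against 7.08% of all genes tested. A total of 6 of them (Mcm3, Mcm4, Mcm5, Mcm7, Cdc6 and Cdt1) were lower by 2-fold or more, against 0.118% of all genes, or 11 genes. Since the genes were selected on this contrast, nothing is read from these shares. The median difference was -1.05 over the 10 genes and -0.0064 over the 9295 genes tested.

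The same genes were also measured by further probe sets. Over all 23 probe sets, 22 had a lower mean in tetraploid cells and 21 had fractions that did not overlap, against 6.77% of all 22626 probe sets. SEs of probe sets other than the brightest come from the same model fitted to all probe sets. For Mcm4 the second probe set gave -1.09 ± 0.20 and for Mcm6 -0.95 ± 0.18, close to the brightest ones. The 3 further Mcm7 probe sets gave -0.83 ± 0.12, -0.80 ± 0.11 and -0.84 ± 0.18. The 4 Mcm7 probe sets thus gave differences between -0.80 and -1.02. Probe sets of the same gene were read on the same arrays and are not independent.

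The 5 probe sets of Mcm3 lay between -0.23 ± 0.09 and -1.20 ± 0.24. The smallest of these differences came from the probe set with a mean log2 intensity of 5.07, near the dim cutoff. The 3 Cdt1 probe sets were the furthest apart of any of these genes. The middle one gave -1.04 ± 0.19, and the dimmest, at a mean of 4.02, gave 0.07 ± 0.09 with overlapping fractions. The mean of all 3 Cdt1 probe sets differed by -0.69. The second Mcm10 probe set, at 5.46, 5.71 and 5.54 in diploid and 5.39, 5.43 and 5.42 in tetraploid cells, gave -0.16 ± 0.09. These tetraploid arrays were below the diploid ones by a narrow margin, which the brighter Mcm10 probe set did not show. Mcm5, Cdc6 and Cdc45 had 1 probe set each. Of the 23 probe sets, 8 were of the Affymetrix kinds (suffixes s and x) that can bind transcripts of more than 1 gene, among them the brightest for Mcm2, Mcm3 and Mcm7.

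**Figure D2:**
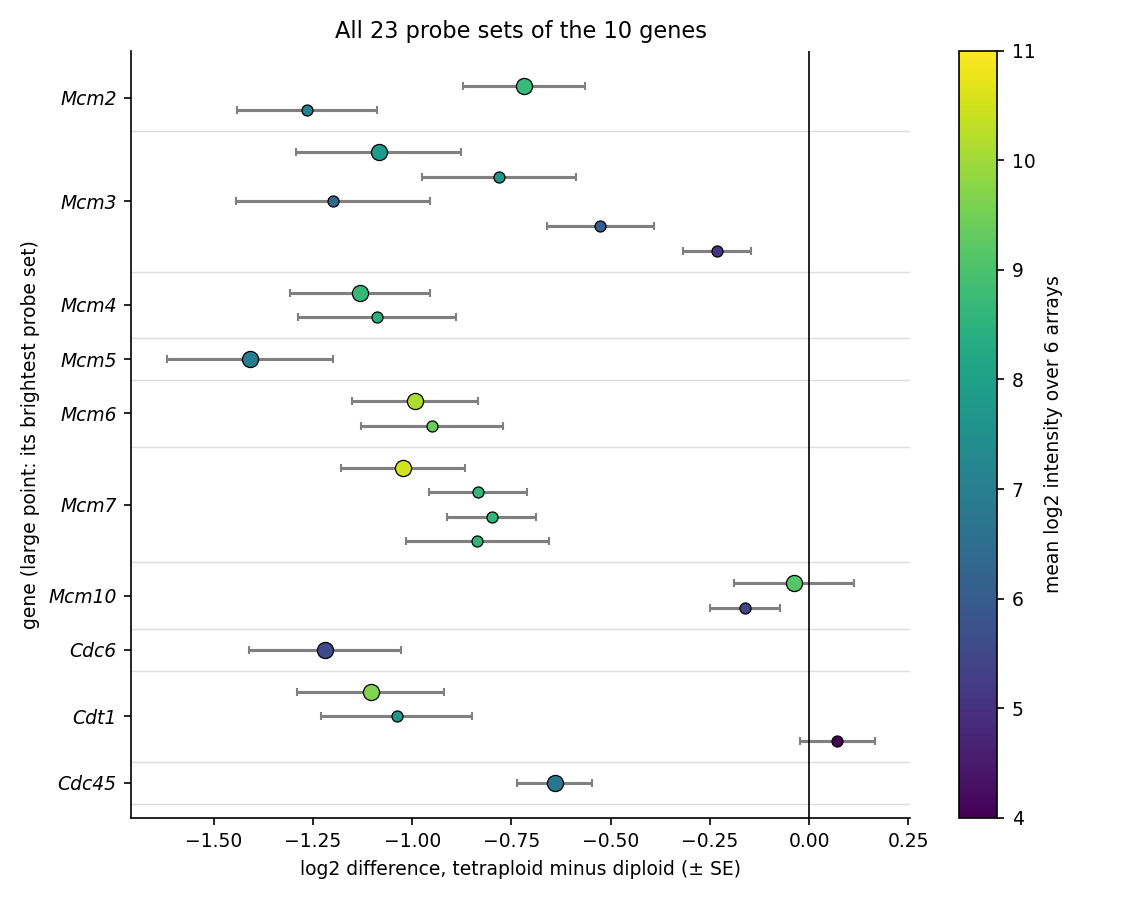
Log2 difference (tetraploid minus diploid, ± SE) of each of the 23 probe sets, grouped by gene, with the brightest probe set of a gene as the large point and the mean log2 intensity as colour. All points lie below 0 except the dimmest Cdt1 probe set at 0.07, and both Mcm10 points lie near 0.

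Promoter letters are shown because 9 of the genes differed in the same direction. The RefSeq promoter table (GRCm38.p6) holds windows from 250 bases before to 50 bases after a transcription start, and 9 of the 10 genes matched by symbol, in 10 windows. Mcm4 did not match. Windows were searched on both strands for 4 spellings of the E2F-type motif (TTTCCCGC, TTTGGCGC, TTTCGCGC and TTTGCCGC), for the CCAAT box bound by NF-Y, and for TTTGAA, the element known from genes of late cell cycle phases. An E2F-type spelling was present in 6 of the 9 genes (Mcm3, Mcm5, Mcm6, Mcm7, Cdc6 and Cdt1). By window it was 6 of 10, against 3.90% of 9633 windows of the genes tested and 2.26% of all 32851 windows. Without the bases after the start it was 4 genes and 4 of the 10 windows, against 3.23% of windows of the genes tested.

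The short stretches below show each gene's E2F-type letters in capitals with flanking bases in lower case, on the strand of the gene. The sites of Mcm5 and Mcm6 lie upstream of the annotated gene, and those of the other 4 genes lie within the span that the annotation gives the gene. Positions count from the transcription start, with negative numbers before it.
Mcm5 (-153 to -142, chr8:75109346-75109377, plus strand): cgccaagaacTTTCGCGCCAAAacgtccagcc
Mcm6 (-110 to -99, chr1:128359794-128359825, minus strand): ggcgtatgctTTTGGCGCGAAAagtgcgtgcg
Mcm7, second start (-165 to -158, chr5:138172031-138172058, minus strand): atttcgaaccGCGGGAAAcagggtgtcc
Cdc6 (-138 to -131, chr11:98908003-98908030, plus strand): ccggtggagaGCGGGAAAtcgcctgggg
Mcm3 (20 to 27, chr1:20820276-20820303, minus strand): aacttccgtgGCGGGAAAacttgggaag
Cdt1 (33 to 40, chr8:122568037-122568064, plus strand): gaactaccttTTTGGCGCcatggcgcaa
In Mcm5 and Mcm6 the 12 capitals hold a spelling on each strand, which overlap in the middle. Mcm3, Mcm6 and Mcm7 each held a further E2F-type match, at 39 to 46, at -47 to -40 and at 17 to 24.

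A CCAAT box in either orientation was present in 7 of the 9 genes and 8 of the 10 windows, against 37.4% of windows of the genes tested. It was found in Mcm2, Mcm3, Mcm5, Mcm6, Mcm7, Mcm10 and Cdc45. TTTGAA was present in 2 genes, Mcm2 and Cdc45, and 2 of the 10 windows, against 12.1% of windows of the genes tested. The longer stretches below show Mcm6 and Mcm10, with capitals for E2F-type and CCAAT letters (ATTGG on the other strand).
Mcm6 (-120 to -1, chr1:128359706-128359825, minus strand): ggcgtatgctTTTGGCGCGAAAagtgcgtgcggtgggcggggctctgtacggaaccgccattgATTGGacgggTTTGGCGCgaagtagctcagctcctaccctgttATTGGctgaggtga
Mcm10 (-108 to -9, chr2:5012800-5012899, minus strand): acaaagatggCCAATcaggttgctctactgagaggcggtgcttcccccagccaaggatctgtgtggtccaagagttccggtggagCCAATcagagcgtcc
Both stretches hold a pair of CCAAT boxes. The windows of Mcm10, Mcm2 and Cdc45 held none of the 4 E2F-type spellings. The part of these letters in the differences between the fractions was not tested. A match is only a run of letters, and these arrays measured no binding.

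**Figure D3:**
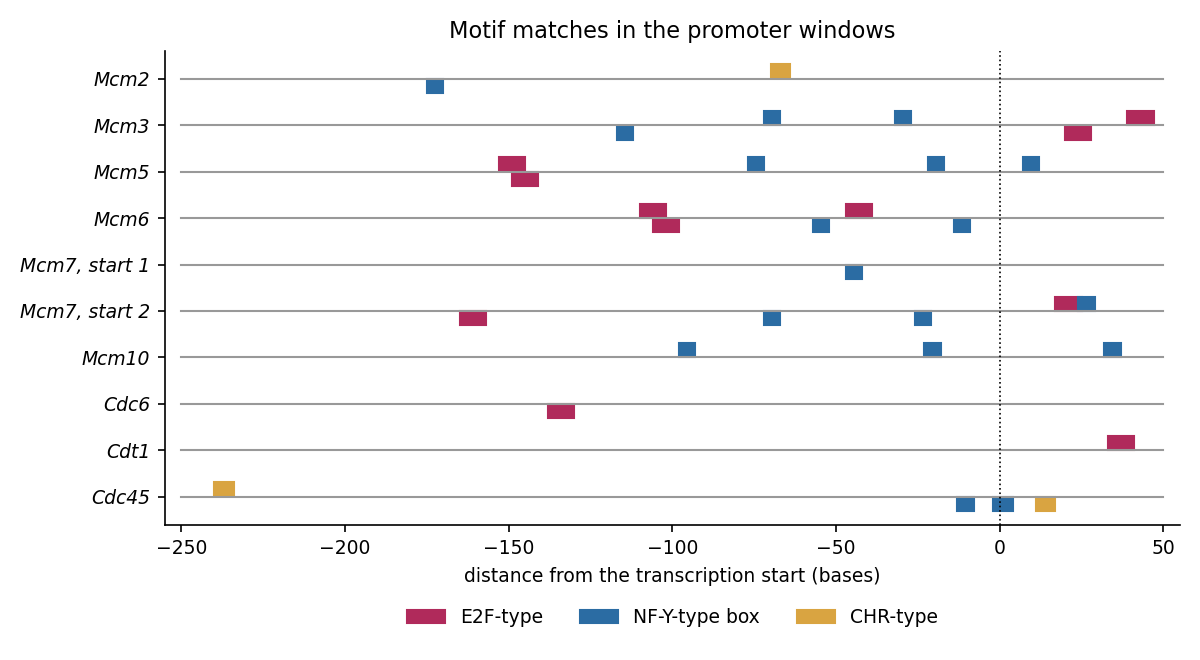
Positions of motif matches in the 10 promoter windows of 9 genes, as distance in bases from the transcription start (dotted line), with E2F-type, NF-Y-type and CHR-type (TTTGAA) matches in red, blue and yellow, above the line for the gene's strand and below it for the opposite strand. E2F-type matches lie in 6 of the windows and NF-Y-type boxes in 8.

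Within a fraction, the 10 genes also differed between arrays. The mean over the 10 genes of the log2 value, centred on each gene's mean over the 6 arrays, was 0.72, 0.35 and 0.33 on diploid replicates 1 to 3. It was -0.23, -0.62 and -0.55 on tetraploid replicates 1 to 3. Replicate 1 was the highest array of its fraction in both cases. Diploid replicate 1 held the highest diploid value of 8 of the 10 genes, all but Mcm10 and Cdc45. Tetraploid replicate 1 held the highest tetraploid value of 9, all but Mcm10. The fractions still did not overlap on this mean. Without diploid replicate 1 the median difference of the 10 genes was -0.86.

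The G2 and mitosis genes did not follow the same order of arrays. Of 34 listed genes 33 were tested, 17 with a lower and 16 with a higher mean in tetraploid cells. Their differences ran from -0.53 to 0.52, with a median of -0.0024. By limma 0 passed the adjusted threshold and 0 had an unadjusted p under 0.05, and 0 had fractions that did not overlap. The fit leaves out any pairing between diploid and tetraploid arrays, so these counts do not show that the genes were equal. With 1 array left out, 1 to 5 of them had an unadjusted p under 0.05, 5 of them without tetraploid replicate 2. Their centred mean was 0.0006, -0.27 and 0.27 on diploid replicates 1 to 3 and -0.0019, 0.28 and -0.28 on tetraploid replicates 1 to 3. Tetraploid replicate 2 was thus the highest array for mitotic genes and the lowest for the helicase and loader mean. Among the brightest on this list, Mad2l1, a spindle checkpoint protein, differed by -0.27 ± 0.19 and Cdk1, the mitotic kinase, by -0.24 ± 0.22 (adjusted p = 0.871 and 0.906). Both lie on the lower side of this list, on which 16 genes had a higher mean.

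**Figure D4:**
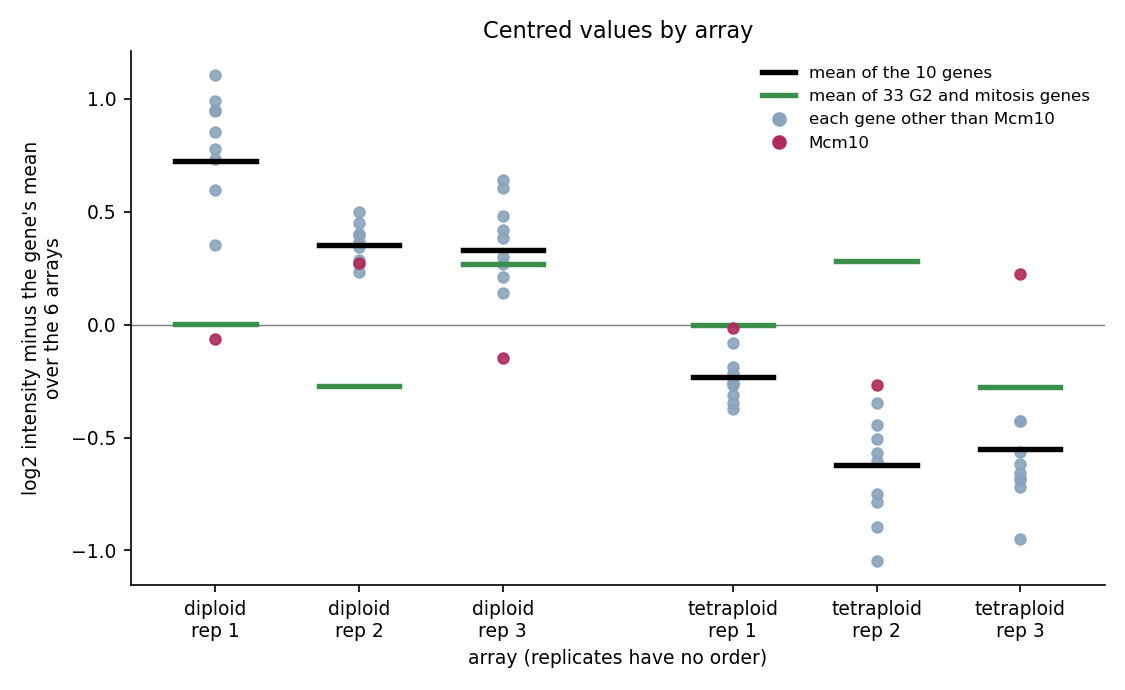
Log2 intensity minus the mean of the gene over the 6 arrays, for each array, with 1 point per gene (Mcm10 in red), a black bar for the mean of the 10 genes and a green bar for the mean of 33 G2 and mitosis genes. The black bar is above 0.3 on every diploid array and below -0.2 on every tetraploid array, while the green bar is high on diploid replicate 3 and tetraploid replicate 2.

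Genes that work with the helicase were examined through 5 lists of 40 genes, of which 32 were tested, 2 were dim and 6 lacked a probe set of a single symbol. Over these 32 genes 23 had a lower and 9 a higher mean in tetraploid cells, with a median difference of -0.15. In the limma fit 0 reached an adjusted p of 0.05. The unadjusted p fell under 0.05 for 11 genes with lower tetraploid values, where 3.85% of all genes did so, and for 0 with higher values, where 2.32% did so. Fractions did not overlap for 10 lower and 0 higher genes, where 7.08% and 5.22% of all genes did so. Dtl is in both counts of lower genes. The lists were chosen with earlier results of these data known, so nothing is read from these shares.

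The origin recognition complex, the platform on which the ring is loaded, had a median difference of 0.07 over 6 tested genes of 7, with 2 lower and 4 higher on average. Orc1 was dim. Only Orc6 of these 6 had an unadjusted p under 0.05 by limma, and 0 passed when adjusted. Orc6 was at 7.72, 7.37 and 7.54 in diploid and 7.30, 6.94 and 6.95 in tetraploid replicates 1 to 3, with no overlap. Its difference was -0.48 ± 0.13 (adjusted p = 0.524). Orc4 and Orc5, which belong to its core, differed by 0.15 ± 0.14 and 0.11 ± 0.10 (adjusted p = 0.905 and 0.906).

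Of the 9 genes that control licensing, 5 had lower and 4 higher means, with a median of -0.13, and 0 passed the adjusted threshold by limma while 2 had an unadjusted p under 0.05. Dtl, which directs the ligase that destroys Cdt1 in S phase, was at 6.12, 5.86 and 6.08 in diploid and 5.22, 4.59 and 4.95 in tetraploid cells. The difference was -1.10 ± 0.16. Its tetraploid mean of 4.92 lay below the dim cutoff, so Dtl passed the filter only through its diploid arrays, and its test and its place in the counts of this list and of the 32 genes are no support for a difference. A second, dim Dtl probe set differed by -0.05 ± 0.09. Gmnn, which encodes the Cdt1 inhibitor geminin, differed by -0.38 ± 0.16 with overlapping fractions (adjusted p = 0.794). Skp2, the F-box protein of another ligase for Cdt1, differed by -0.37 ± 0.19 (adjusted p = 0.834). Ddb1, the adaptor of the ligase with Dtl, differed by -0.13 ± 0.07 with no overlap (adjusted p = 0.839).

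Origin firing genes had a median of -0.39, with 7 of 8 tested genes lower on average, 5 at an unadjusted p under 0.05 and 0 past the adjusted threshold by limma. Gins2, Gins3 and Ticrr were not measured by a probe set of a single symbol. Topbp1, the scaffold that brings Cdc45 to licensed origins, was at 9.30, 9.11 and 9.19 in diploid and 8.66, 8.49 and 8.50 in tetraploid cells. The spread within each fraction was small against the difference of -0.65 ± 0.08 (adjusted p = 0.211). Donson, a factor for helicase assembly, differed by -0.51 ± 0.09 (adjusted p = 0.212). Gins1, a subunit of the GINS complex, differed by -0.59 ± 0.18 (adjusted p = 0.648), and Gins4, another subunit, by -0.34 ± 0.12 with overlapping fractions. Mtbp, a partner of Ticrr, differed by -0.43 ± 0.15 with no overlap (adjusted p = 0.765). The kinase subunits that phosphorylate the ring gave -0.17 ± 0.15 for Cdc7 and 0.18 ± 0.19 for Dbf4, with overlapping fractions in both. A second, dim Cdc7 probe set gave -0.33 ± 0.18 with no overlap, and a second, dim Dbf4 probe set gave -0.01 ± 0.10 with overlap.

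All 3 tested fork partners of the helicase were lower on average, with no overlap and unadjusted p-values under 0.05, and 0 passed when adjusted by limma. Timeless, which couples the helicase to the polymerases, was at 8.28, 7.87 and 7.76 in diploid and 7.17, 6.88 and 6.87 in tetraploid cells. Its difference was -0.999 ± 0.15 (adjusted p = 0.211), and a second probe set gave -0.74 ± 0.16. Wdhd1, which links the helicase to the primase, differed by -0.72 ± 0.12 (adjusted p = 0.212), and Tipin, the partner of Timeless, by -0.53 ± 0.15 (adjusted p = 0.571). Mcm9, a helicase relative outside the ring, was dim at 4.23 over the 6 arrays.

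The brightest probe sets of the genes that unload the ring at the end of replication differed by between -0.16 and -0.0013 over 6 tested genes, with a median of -0.06. By limma 0 passed adjusted and 0 had an unadjusted p under 0.05, and the fractions overlapped in all 6. Lrr1, the ubiquitin ligase subunit that marks the terminated helicase, differed by -0.16 ± 0.12 (adjusted p = 0.878). Its second probe set was at 6.53, 6.17 and 6.51 in diploid and 5.76, 5.79 and 5.77 in tetraploid replicates 1 to 3, with no overlap and a difference of -0.63 ± 0.11. Faf1, a cofactor of the unfolding ATPase, gave -0.07 ± 0.07 by its brightest probe set and 0.33 ± 0.14, with no overlap and the tetraploid arrays higher, by its second. Traip, a ligase that acts on helicases in mitosis, gave -0.07 ± 0.08.

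**Figure D5:**
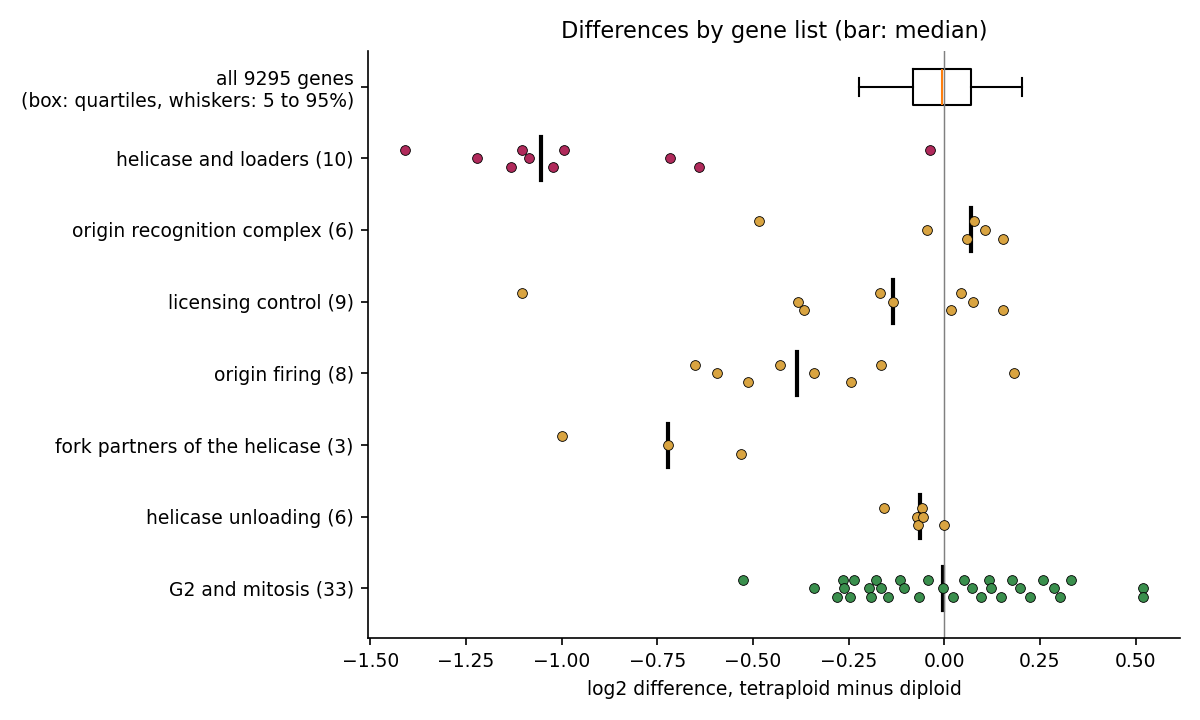
Log2 differences (tetraploid minus diploid) of single genes by list, with a black bar for the median, and a box plot of all 9295 genes tested (box at the quartiles, whiskers at the 5th and 95th percentiles). The helicase and loader points cluster around their median of -1.05 apart from Mcm10 near 0, while 4 of 6 origin recognition genes lie above 0.

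The 8 genes outside the list whose centred profile over the 6 arrays lay closest to the mean profile of the 10 genes, by root mean square distance on the log2 scale, were Timeless, Rpa2, Fignl1, Chek1, Tcf19, Rad51ap1, Pcna and Pole2. Their distances ran from 0.058 for Timeless to 0.158 for Pole2. Timeless was the nearest of all genes, listed ones included, and Mcm7 followed at 0.084. The listed genes themselves lay at 0.084 to 0.272, apart from Mcm10 at 0.521, which ranked 5551 of 9295. Each of them is part of the mean profile, which draws its own distance down. Rpa2, a subunit of the single-strand binding protein, differed by -0.78 ± 0.16, and Pcna, the sliding clamp, by -0.84 ± 0.18. The 8 genes were picked for closeness to a profile that is lower in tetraploid cells. Their negative differences follow from that choice and are no support for a difference.

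Of the markers of other liver cells on the array, 1 of 9 endothelial, 3 of 10 Kupffer cell and leukocyte, 4 of 8 stellate, 2 of 4 cholangiocyte and 4 of 6 erythroid genes were dim, and no list was tested against the array background. The mean log2 intensity of the 9 endothelial markers ran from 6.22 to 6.42 on the diploid and from 6.38 to 6.62 on the tetraploid arrays. Of the 8 tested, 7 were higher on average in tetraploid cells, with a median of 0.27, where 4439 of all 9295 genes were higher. By limma 3 had an unadjusted p under 0.05 (0 adjusted), all higher, where 2.32% of all genes did so. The brightest were Fcgr2b and Clec4g. Fcgr2b, an Fc receptor of sinusoidal cells, differed by 0.34 ± 0.13 and Clec4g, a lectin of the same cells, by 0.34 ± 0.14. Further Fcgr2b probe sets gave 0.02 ± 0.11, 0.27 ± 0.11 and 0.13 ± 0.10. A dim second Clec4g probe set gave -0.05 ± 0.10. The fractions overlapped in each of these further probe sets. The 10 Kupffer cell and leukocyte markers averaged 5.38 to 5.54 on the diploid and 5.28 to 5.46 on the tetraploid arrays. Of the 7 tested, 6 had lower means in tetraploid cells, with a median of -0.09, where 4856 of all 9295 genes were lower. The brightest, Csf1r and Cd5l, differed by -0.14 ± 0.13 and 0.07 ± 0.18. Stellate cell markers averaged 5.61 to 5.83 and 5.62 to 5.75, cholangiocyte markers 5.22 to 5.37 and 5.15 to 5.20, and erythroid markers 5.33 to 5.37 and 5.34 to 5.42, on diploid and tetraploid arrays in turn. The brightest stellate markers, Reln and Dcn, differed by 0.12 ± 0.08 and 0.29 ± 0.25, and the other 2 tested, Des and Pdgfrb, by -0.14 ± 0.08 and -0.24 ± 0.09. Pdgfrb had an unadjusted p of 0.0289 and an adjusted p of 0.779 by limma, with no overlap, and Reln did not overlap either, in the other direction. The cholangiocyte markers Sox9 and Krt19 differed by -0.09 ± 0.08 and 0.03 ± 0.14, and the erythroid markers Klf1 and Alas2 by -0.10 ± 0.11 and 0.12 ± 0.10. The cholangiocyte means, dim genes included, did not overlap between the fractions, with the tetraploid arrays lower. Of the dim cholangiocyte markers, Epcam differed by -0.32 ± 0.10 with no overlap and Krt7 by -0.15 ± 0.13 with overlap. The part of these cells in the differences of the helicase and loader genes was not tested.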

How the data were processed

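RNA from 3 diploid and 3 tetraploid hepatocyte samples was hybridised to Affymetrix arrays. The deposited values are intensities on a linear scale, made with RMA per the submitters' processing notes. The RMA version is not stated in those notes. Values were log2-transformed. The table lists 22690 probe sets, including 64 controls that were removed, and 20380 had 1 gene symbol in the platform annotation, 691 several and 1555 none. Each of 12393 genes was represented by its brightest probe set, and the dimmest 25% of genes (mean under 5.06) were removed. The remaining 9295 genes were tested with limma 3.58.1 in R 4.3.3 (lmFit, eBayes, two-sided, Benjamini-Hochberg), with ploidy as the only factor. With 3 arrays per fraction precision is limited, and the median SE was 0.095.

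The members, the lists and the tests were chosen with earlier results of these data known. Genes named are all members, the 3 smallest p-values and the non-overlapping genes of each helicase list, the 2 brightest genes of each marker list, and the 8 nearest profiles. Gins4, Cdc7, Dbf4, Mcm9, Des, Pdgfrb, Epcam, Krt7 and the remarks on second and further probe sets were added after their values were seen.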

Additional observations from a re-analysis of the deposited data

How the results depend on the processing

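Under 9 other settings and with each array left out in turn, the 9 genes other than Mcm10 kept a negative difference wherever they passed the filter. Their fractions did not overlap, so leaving out 1 array could not change the sign. The filter settings, the replicate block and the intensity trend leave each difference as it was. The kept sign is therefore no support for a difference. Mcm10 ran from -0.16 to 0.09 when single arrays were left out. The median of the 10 genes ran from -0.86 to -1.18 over the left-out arrays and was -0.92 with the mean of all probe sets and -0.96 with an offset of 32, under which Cdc6 was -0.73 and Cdc45 -0.49. With the mean of all probe sets Cdt1 was -0.69 and Mcm2 -0.99. With 50% of genes left out as dim, 8 of the 10 genes were kept and 369 genes had an unadjusted p under 0.05, from fewer genes tested. That count ran from 380 (without diploid replicate 1) to 641 (without diploid replicate 2) when single arrays were left out, and was 574 with all arrays. The number of genes past the adjusted threshold ran from 0 to 1 (Hells, without tetraploid replicate 1). Arrays with the same replicate number correlated at 0.57, -0.20 and -0.20 in their deviations from the fraction means. Not every array correlated best with its own number. The highest correlation was 0.69, between diploid replicate 3 and tetraploid replicate 2, and diploid replicate 2 correlated at 0.38 with tetraploid replicate 3. Whether the numbers pair the samples or are crossed cannot be told from the labels. Every fit here, that of the G2 and mitosis genes included, leaves any crossed pairing out. With a replicate block 9 genes passed the adjusted threshold, among them Timeless, against 0 without it, and 549 had an unadjusted p under 0.05. The block pairs arrays by replicate number, which may not pair the samples. Also among the 9 were helicase and loader genes, selected on this contrast, and Dtl, which passed the filter only through its diploid arrays. Timeless, with Chek1 and Fignl1 also among the 9, belongs to the nearest profiles, picked for closeness to genes lower in tetraploid cells. Those calls are no support for a difference. The cause of the change from 0 to 9 was not tested. A match counted only before the start left 4 genes with an E2F-type spelling.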

Other observations

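All 6 probe sets of Skp2 had lower means in tetraploid cells, from -0.14 to -0.61. For 3 of them the fractions did not overlap, where 6.77% of all 22626 probe sets were lower without overlap. The brightest, at -0.37, had overlapping fractions. The 6 probe sets measure 1 gene on the same arrays and are not independent.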
